A study of Homo sapiens with 6 samples.

Results

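LCLAT1, the target of the LYCAT shRNA, was examined together with 9 glycerolipid acyltransferase genes related to it by function: AGPAT1, AGPAT2, AGPAT3, AGPAT4, AGPAT5, AGPAT6, AGPAT9, LPGAT1 and GPAM. These 10 genes were taken by symbol from the 23368 genes of the count table, and all 10 were abundant enough to be tested, among 11097 tested genes. RNA was sequenced from H2122, an established human lung adenocarcinoma cell line. Cells had been transfected 48 hours earlier; 3 libraries came from cells given a control shRNA and 3 from cells given LYCAT shRNA, and LYCAT is an older name of LCLAT1. Both groups were the same parental line with no other treatment named, the number of LYCAT hairpins is not given in the labels, and nothing in them tells whether replicates were separate cultures. The tests therefore measure the spread between libraries, which may be technical.

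The family works on the glycerol backbone of membrane and storage lipids. Glycerol-3-phosphate acyltransferases (GPATs), encoded by GPAM, AGPAT9 (now GPAT3) and AGPAT6 (now GPAT4), place a fatty acid on glycerol 3-phosphate and make lysophosphatidic acid. Acylglycerol-phosphate acyltransferases (AGPATs) add a second fatty acid and make phosphatidic acid, the precursor of phospholipids and triacylglycerol. LCLAT1 and LPGAT1 act on finished lipids that have lost a chain: LCLAT1 reacylates lysocardiolipin and lysophosphatidylinositol, and LPGAT1 was described as a reacylating enzyme of lysophosphatidylglycerol.

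Most of the family shares 1 short catalytic motif, asparagine and histidine followed by 4 residues of any kind and aspartate, and its coding bases are shown here because they are what these genes have in common beyond their names. The motif was found in 9 of the 10 members and in 2.45% of 19484 human genes, 1 complete coding sequence per gene being read in frame. In GPAM the histidine and aspartate were present without the asparagine, a looser pattern held by 42.1% of the genes. Each stretch below has 21 bases of the coding strand from GENCODE v29 transcripts (GRCh38), with the histidine and aspartate codons in capitals, and those of AGPAT5 and AGPAT6 are not shown.
LCLAT1: aacCATcggacaagaatgGAC
LPGAT1: aatCATcaggcaacaggaGAT
AGPAT1: aacCACcagagctctctcGAT
AGPAT2: aacCACcagagcatcctgGAC
AGPAT3: aacCACaacttcgagatcGAC
AGPAT4: aacCACaagtttgaaattGAC
AGPAT9 (GPAT3): aacCATacttcccccattGAT
GPAM: gttCATagatcccatattGAC
The LCLAT1 stretch lies at chr2:30533200-30533220 on the plus strand, in exon 4, where the histidine is codon 123 of 414. Those of LPGAT1 (chr1:211793111-211793131), AGPAT1 (chr6:32170944-32170964), AGPAT4 (chr6:161166293-161166313), AGPAT2 (chr9:136677430-136677450) and GPAM (chr10:112172271-112172291) are on minus strands, and those of AGPAT9 (chr4:83590236-83590256) and AGPAT3 (chr21:43968050-43968070) are on plus strands. AGPAT3 and AGPAT4 were alike at 17 of the 21 bases, AGPAT1 and AGPAT2 at 16, and AGPAT9 and AGPAT6 at 16. LCLAT1 was closest to AGPAT2, at 14 bases, followed by AGPAT5 and LPGAT1 at 13 each. The stretches were picked by the motif, so part of each match was fixed beforehand. Of the 15 bases outside the capitals, LCLAT1 shared 9 with AGPAT2, 8 with LPGAT1 and 7 each with AGPAT1, AGPAT4 and AGPAT5. These 15 still include the asparagine codon of the motif, so part of this match was fixed beforehand too. That codon is aac in LCLAT1 and AGPAT2 and aat in LPGAT1, so the lead of AGPAT2 over LPGAT1 is not free of it.

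Library totals ran from 3118946 to 4930079 counts, and 3 counts corresponded to 0.608 to 0.968 CPM (counts per 1000000, on TMM-scaled library sizes). Of 12 epithelial markers 11 were abundant enough to test (all but MUC1), and 6 of them fell with LYCAT shRNA, 0 rose and 5 did not pass, where 9.26% of all tested genes were called lower. Those that fell were the keratins KRT7, KRT8 and KRT18, the adhesion molecule CDH1, the splicing factor ESRP1 and the transcription factor GRHL2, by 1.17-fold to 1.37-fold (edgeR adjusted p = 1.21e-05 to 0.0345). DESeq2 called 3 of them lower, the keratins, and without control libraries 1 and 2 KRT7 alone passed. Summed, the 12 stood at 2377 to 2452 CPM in controls and at 2130 to 2187 CPM with LYCAT shRNA, so the groups did not overlap. The part of these shifts in the results below was not tested. Summed fibroblast marker levels were 90.0, 131 and 31.3 CPM in control libraries 1 to 3 and 19.3 to 37.6 CPM with LYCAT shRNA, so control libraries 1 and 2 stood apart in this sum. Of these 8 markers only 3, the collagens, were abundant enough to test. COL1A1 alone gave 59.4, 82.7 and 28.3 CPM in control libraries 1 to 3 and 25.9, 16.4 and 22.9 CPM with LYCAT shRNA. Of the 3 collagens edgeR called 0, DESeq2 called COL1A1 lower, and limma-voom called COL1A1 and COL3A1 lower. THY1 and LUM reached 22 and 19 counts in a control library, while DCN, PDGFRB and POSTN had at most 3 counts in any library. Of 6 endothelial and 7 blood cell markers, 4 and 4 had a count of 0 in all libraries, PECAM1, CDH5 and PTPRC among them. The fold changes of named genes and the counts of called members and pathway genes were also computed without control libraries 1 and 2.

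LCLAT1 transcript was lower in every library with LYCAT shRNA than in any control library. The control libraries held 265, 302 and 265 counts of it (56.8, 61.2 and 65.3 CPM), against 89, 70 and 101 counts (18.9, 22.6 and 23.6 CPM) with the shRNA. The remaining level was 35.4% of control, and the 95% interval of the ratio ran from 0.302 to 0.414 (log2 -1.50, SE 0.114, edgeR quasi-likelihood adjusted p = 1.15e-18). Only 46 of the 11097 tested genes, LCLAT1 included, had a log2 fold change this low. The spread of the control libraries was close to what counting alone gives, with a coefficient of variation of 6.93% against 6.0% from the counts. With 1 library left out at a time, the log2 fold change stayed between -1.57 and -1.40, and it was -1.60 without control libraries 1 and 2.

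**Figure D1:**
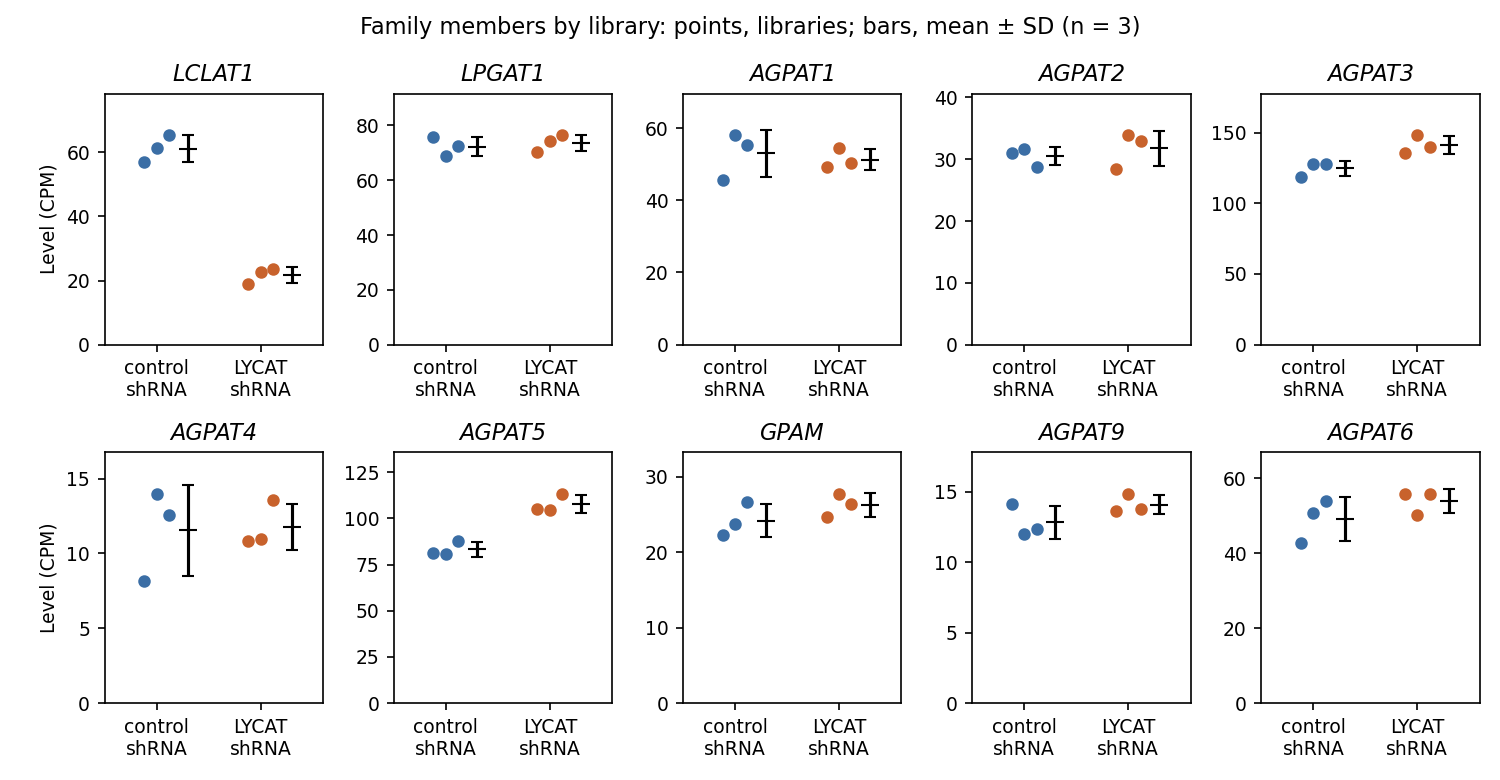
Level in CPM (linear axis from 0) of each of the 10 members in the 3 control shRNA and 3 LYCAT shRNA libraries; points are libraries and bars are the mean ± SD. LCLAT1 dropped from 56.8–65.3 to 18.9–23.6 CPM, the AGPAT5 groups did not overlap (80.5–87.9 and 104–113 CPM), nor did those of AGPAT3, and the groups of the other members overlapped.

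Of the 9 other members, 1 rose, 0 fell and 8 did not pass the test, where 19.1% of all tested genes were called (9.81% higher and 9.26% lower). The median log2 fold change of the 9 was 0.11 against -0.01 over all tested genes, and 8 of the 9 values were above 0. Some of these lay close to 0, and LPGAT1 (0.026) and AGPAT4 (0.032) changed sign in fits with 1 library left out. The share of all tested genes above 0 is not given here. No library of one group fell within the range of the other for 2 of the 9, AGPAT5 and AGPAT3, and this held for 32.8% of all tested genes. At an unadjusted p under 0.05 in edgeR 2 of the 9 were higher and 0 lower, a count for which the share over all tested genes is not given here. DESeq2 and limma-voom each called 1 higher and 0 lower. Over all 11097 tested genes DESeq2 called 635 higher and 558 lower, and limma-voom 1026 higher and 959 lower.

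AGPAT5, which encodes an acylglycerol-phosphate acyltransferase of endoplasmic reticulum and mitochondria, was the member that rose. It stood at 81.2, 80.5 and 87.9 CPM in the control libraries and at 105, 104 and 113 CPM with LYCAT shRNA. All 3 LYCAT shRNA libraries were thus above all 3 controls, and the means were 83.2 ± 4.10 and 108 ± 4.91 CPM (SD, n = 3 each). The fold change was 1.30 with a 95% interval of 1.17 to 1.44 (log2 0.38, SE 0.0759, edgeR adjusted p = 0.00011). By size this was an ordinary change: 48.7% of the 1089 genes called higher had a log2 fold change at least as large. The exact two-sided permutation p for AGPAT5 was 0.1, and a design of 3 against 3 cannot go lower. AGPAT5 passed without any 1 library (edgeR adjusted p = 0.000253 to 0.00483), but without control libraries 1 and 2 its log2 fold change was 0.29 (adjusted p = 0.0502). That fit borrows the spread of the single control from the LYCAT shRNA libraries. The control library with the lowest fibroblast marker sum, replicate 3, had the highest AGPAT5 level of the controls. Whether the marker sum and AGPAT5 are linked was not tested.

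AGPAT3, an acyltransferase with a preference for polyunsaturated acyl chains, lay at the threshold. Its control libraries held 119, 127 and 128 CPM and its LYCAT shRNA libraries 136, 148 and 140 CPM. The groups did not overlap, yet the fold change was 1.13 (95% interval 1.03 to 1.24 before adjustment) and the edgeR adjusted p was 0.0505. It passed in 2 of the 14 alternatives, without control replicate 2 (edgeR adjusted p = 0.0337) and with DESeq2's size factors (0.0481). The full DESeq2 test gave an adjusted p of 0.153, and with 1 library left out the edgeR adjusted p ran up to 0.188.

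The remaining AGPAT genes had overlapping groups. AGPAT1, a widely expressed enzyme of phosphatidic acid synthesis, was measured at 45.7, 58.0 and 55.4 CPM in controls and 49.1, 54.5 and 50.2 CPM with LYCAT shRNA (fold change 0.963, interval 0.839 to 1.10, edgeR adjusted p = 0.763). In the annotation 30.2% of its exon bases overlap other genes, mainly EGFL8 on the other strand (a count of 0 in all 6 libraries). The strand setting of the counting is not known here, so reads of the 2 genes cannot be told apart and the level of AGPAT1 is uncertain. AGPAT2, whose loss causes a congenital lipodystrophy, was measured at 31.1, 31.6 and 28.8 CPM in controls and 28.5, 33.9 and 32.9 CPM with LYCAT shRNA (fold change 1.03, interval 0.875 to 1.22, adjusted p = 0.848). The interval thus leaves room for a rise of AGPAT2 as large as the lower bound for AGPAT5. AGPAT4 was the least abundant member, at 8.14, 14.0 and 12.6 CPM in controls and 10.8, 10.9 and 13.5 CPM with LYCAT shRNA. Its control libraries varied by 26.3%, against 13.8% from counting alone, and the interval of its fold change was the widest of the 10, 0.778 to 1.34. A separate row for AGPAT4-IT1, a transcript from within AGPAT4, was not added to it.

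LPGAT1, the other reacylating enzyme, was measured at 75.7, 68.7 and 72.4 CPM in controls and 70.4, 74.2 and 76.4 CPM with LYCAT shRNA. The libraries of the groups interleaved. Its fold change was 1.02 with an interval of 0.907 to 1.14 (edgeR adjusted p = 0.875), which leaves out a change of the size seen for AGPAT5.

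The 3 GPAT genes each had a slightly higher mean with LYCAT shRNA, and each had overlapping groups. GPAM, the mitochondrial GPAT, was measured at 22.3, 23.7 and 26.6 CPM in controls and 24.7, 27.7 and 26.4 CPM with LYCAT shRNA (fold change 1.08, interval 0.902 to 1.30, edgeR adjusted p = 0.608). AGPAT9 stood at 14.1, 11.96 and 12.3 CPM in controls and 13.6, 14.8 and 13.8 CPM with LYCAT shRNA (1.09, interval 0.855 to 1.40, adjusted p = 0.680). AGPAT6, an enzyme of the endoplasmic reticulum, stood at 42.7, 50.7 and 53.9 CPM in controls and 55.7, 50.3 and 55.8 CPM with LYCAT shRNA (1.11, interval 0.965 to 1.27, adjusted p = 0.331). The first control library was the low one for AGPAT6, as for AGPAT1, AGPAT3, AGPAT4, GPAM and LCLAT1. Without it the log2 fold change of AGPAT6 was 0.056. Beyond these members GPAT2 had a single count in 1 control library.

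**Figure D2:**
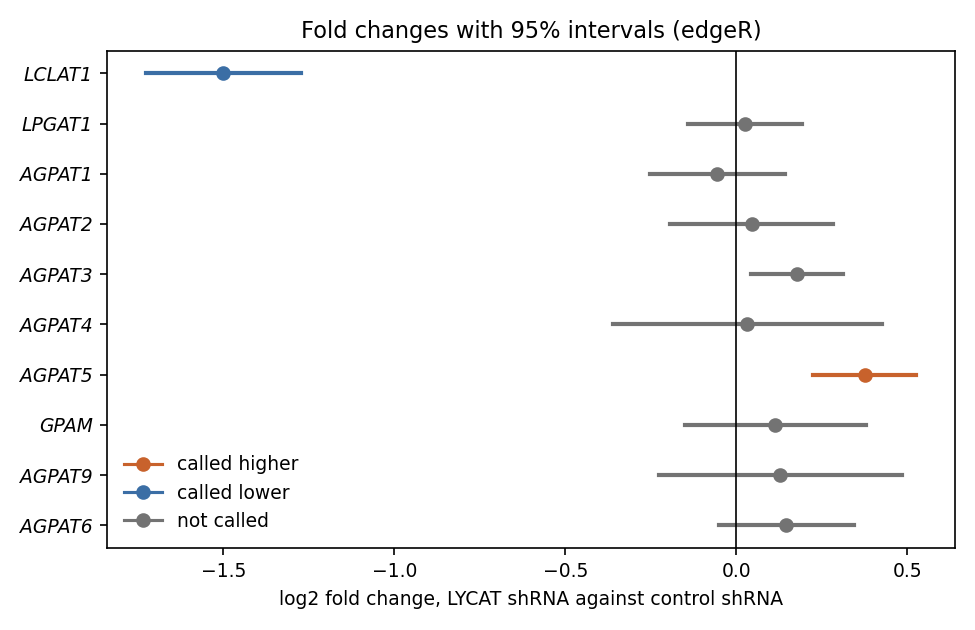
Log2 fold change of LYCAT shRNA against control shRNA for each member (points) with its 95% interval (lines), from the edgeR fit; colour gives the call at an adjusted p under 0.05. LCLAT1 lies at -1.50 and AGPAT5 at 0.38, the AGPAT3 interval excludes 0 but its adjusted p was 0.0505, and the intervals of the other 7 include 0.

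Levels of different genes were compared per kilobase of exon, since longer transcripts give more counts. In control libraries the order was AGPAT5 (17.8 ± 0.875 CPM per kb), AGPAT2 (17.0 ± 0.828), AGPAT1 (14.6 ± 1.79), AGPAT3 (11.03 ± 0.449), LPGAT1 (8.21 ± 0.395), LCLAT1 (8.13 ± 0.563), AGPAT6 (6.18 ± 0.731), AGPAT9 (3.69 ± 0.339), GPAM (2.47 ± 0.224) and AGPAT4 (1.32 ± 0.347; SD, n = 3 each). By this length, neighbours in the order did not overlap between libraries except AGPAT5 with AGPAT2 and LPGAT1 with LCLAT1. LCLAT1 was thus a middle member in control cells, and with LYCAT shRNA it was number 8 of 10, at 2.89 ± 0.326 CPM per kb, where it overlapped with GPAM (2.68 ± 0.157). The AGPAT5 and AGPAT2 libraries, which overlapped in controls, were apart with LYCAT shRNA, at 22.3 to 24.2 and 15.8 to 18.8 CPM per kb. With the length of the longest transcript in place of the summed exons, LCLAT1 was number 5 in controls. The 2 lengths differ unevenly between members: 11296 and 5767 bases for AGPAT3, but 1798 and 1512 for AGPAT2. The order, gaps and overlaps given here therefore hold for summed exon length only.

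**Figure D3:**
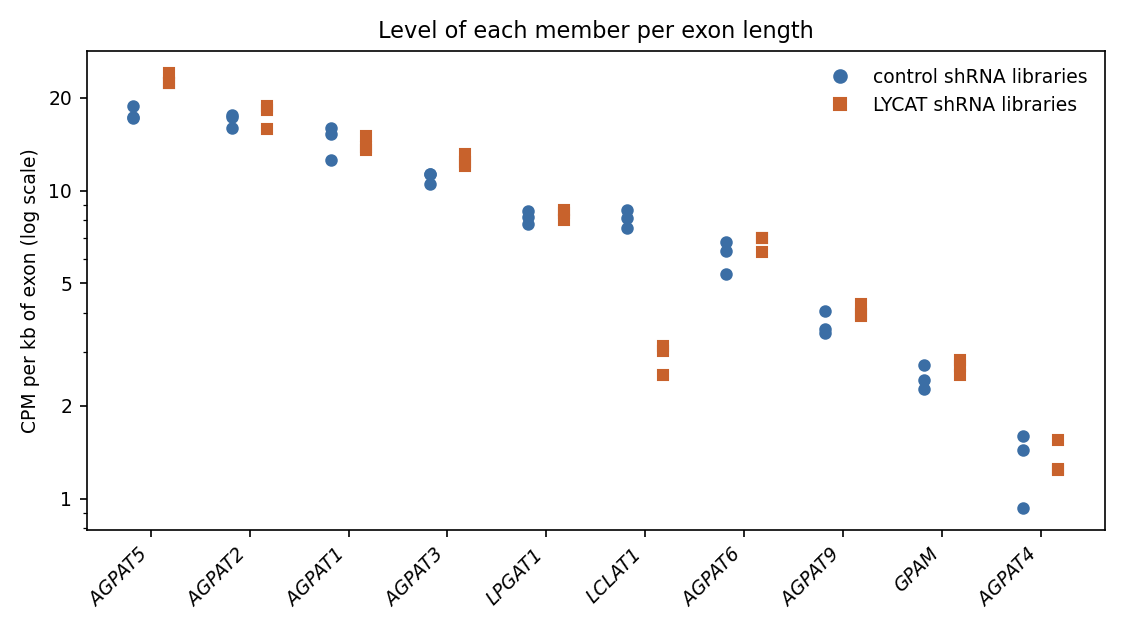
Level per kilobase of exon (logarithmic axis) of each member in each library, ordered by the control mean; circles are control shRNA and squares LYCAT shRNA libraries. By summed exon length, LCLAT1 moved from 8.13 to 2.89 CPM per kb, from the level of LPGAT1 to that of GPAM. By this length the order of the other 9 members was the same in both groups.

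As a share of the summed level of the 10 members per kilobase, LCLAT1 made up 8.73%, 8.87% and 9.36% in the control libraries and 2.83%, 3.15% and 3.28% with LYCAT shRNA. The summed level of the other 9 was 79.0, 83.7 and 84.1 CPM per kb in controls and 86.5, 92.4 and 92.6 with LYCAT shRNA, so these groups did not overlap. Within it the 5 AGPAT genes went from 61.7 ± 2.66 to 68.6 ± 3.07 CPM per kb and the 3 GPAT genes from 12.3 ± 0.671 to 13.5 ± 0.141 (SD, n = 3 each). The largest change of the 9 was that of AGPAT5, from 17.8 ± 0.875 to 23.0 ± 1.05 CPM per kb. AGPAT1 had a lower mean with LYCAT shRNA (14.6 ± 1.79 and 14.1 ± 0.783), so the sum does not show a rise of every member. With LCLAT1 included, the family summed to 90.4 ± 3.36 and 93.4 ± 3.78 CPM per kb, and the groups overlapped. These sums are descriptions of chosen genes and were not tested.

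Around the family, 67 further genes of glycerolipid synthesis and turnover were read in 7 lists, and 51 of them were tested. Of these, 7 rose, 4 fell and 40 did not pass, or 21.6% called, close to the 19.1% of all tested genes, and the median log2 fold change was 0.03. The called changes were small in many cases, and fewer pathway genes passed in several other fits. With 1 library left out 6 to 9 passed, and with DESeq2 2 passed (CDS1 and LYPLA1). Most of these fits also called fewer genes among all those tested. DESeq2 called 1193 against 2117 in the main fit, and the fits with a library left out called 1448 to 1724, apart from 1. That fit, without control replicate 2, called 2228 genes, yet 8 pathway genes passed in it. How far the lost pathway calls rested on single libraries, beyond this general loss, was not tested.

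In the list of genes that turn phosphatidic acid into diacylglycerol and triacylglycerol, 3 of 10 rose, 1 fell and 6 did not pass with edgeR, while DESeq2 called 0 of the 10 in either direction and limma-voom called 2 higher and 1 lower. DGAT2, which makes triacylglycerol, rose from 5.4, 4.5 and 8.1 CPM to 9.4, 13.2 and 10.04 CPM, 1.81-fold with an interval of 1.30 to 2.51 (edgeR adjusted p = 0.00561). It was scarce, and it did not pass without LYCAT shRNA replicate 2 (adjusted p = 0.057). Without control libraries 1 and 2 its log2 fold change went from 0.86 to 0.39 (edgeR adjusted p = 0.486). LPIN1, a phosphatidate phosphatase, rose 1.23-fold, with means of 51.8 ± 2.22 CPM in controls and 64.0 ± 3.35 CPM with LYCAT shRNA (SD, n = 3 each; edgeR adjusted p = 0.0139). Its call ended when control replicate 1 (0.0666) or LYCAT shRNA replicate 3 (0.0913) was left out. DGAT1, named after its value was seen, was at the threshold (1.42-fold, edgeR adjusted p = 0.0493) and passed in 1 of the 6 fits with a library left out, the one without LYCAT shRNA replicate 3 (0.0262 to 0.228 over the 6). PPAP2C, a surface lipid phosphate phosphatase now called PLPP2, fell 1.18-fold from 129 ± 9.52 to 110 ± 5.92 CPM (edgeR adjusted p = 0.00949). Its call ended when control replicate 2 (0.0633), LYCAT shRNA replicate 1 (0.0737) or replicate 3 of that group (0.0758) was left out.

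CDS1, a CDP-diacylglycerol synthase that turns phosphatidic acid towards phosphatidylinositol, fell. It stood at 91.1, 92.6 and 100.5 CPM in controls and at 71.0, 79.0 and 75.9 CPM with LYCAT shRNA, groups that did not overlap. The fall was 1.26-fold (log2 -0.33, SE 0.0798, edgeR adjusted p = 0.00111), and of the pathway genes named here it alone passed under every alternative that was run, the fit without control libraries 1 and 2 included. The other 2 genes of its list, CDS2 and CDIPT, which encodes phosphatidylinositol synthase, did not pass (log2 0.0037 and -0.05).

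Upstream, 1 of 5 tested genes of glycerol 3-phosphate supply and ether lipid entry rose: GNPAT, the peroxisomal enzyme that acylates dihydroxyacetone phosphate. Its level was 43.1, 39.1 and 42.1 CPM in controls and 50.4, 56.1 and 50.9 CPM with LYCAT shRNA (1.26-fold, edgeR adjusted p = 0.0119; 0.0646 without LYCAT shRNA replicate 2). Among genes that make phosphatidic acid from other lipids, 1 of 8 rose and 1 fell, both diacylglycerol kinases at the threshold. DGKA rose 1.42-fold (edgeR adjusted p = 0.0498) and passed in 1 of the 6 fits with a library left out, the one without LYCAT shRNA replicate 2 (0.0482 to 0.246 over the 6). DGKD fell 1.22-fold (0.0478) and passed in 1 of these 6 fits, the one without control replicate 2 (0.0273 to 0.301). Both calls were lost with DESeq2 (0.203 for DGKA and 0.189 for DGKD) and limma-voom (0.0560 and 0.0651), and without control libraries 1 and 2 the log2 fold change of DGKD went from -0.28 to -0.18.

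Among enzymes of choline, ethanolamine and serine phospholipids, 1 of 11 rose: PTDSS1, phosphatidylserine synthase, 1.11-fold, with means of 296 ± 6.23 CPM in controls and 328 ± 11.1 CPM with LYCAT shRNA (SD, n = 3 each; edgeR adjusted p = 0.0315). Its call ended when replicate 1 of the controls (0.0848), or replicate 1 (0.163) or 2 (0.0987) of the LYCAT shRNA group, was left out. Of the 4 tested genes of acyl-CoA supply 0 passed with edgeR, DESeq2 or limma-voom, and 0 had an unadjusted edgeR p under 0.05; the most abundant, DBI, which binds acyl-CoA, and ACSL3, an acyl-CoA synthetase, had log2 values of -0.042 and -0.14 (edgeR adjusted p = 0.663 and 0.186).

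In the list of phospholipases A and lysophospholipases, 1 of 10 tested genes rose and 1 fell. LYPLA1, a lysophospholipase and protein thioesterase, rose 1.16-fold, with means of 147 ± 6.69 CPM in controls and 170 ± 4.46 CPM with LYCAT shRNA (SD, n = 3 each; edgeR adjusted p = 0.00846; 0.0576 without LYCAT shRNA replicate 3). PLA2G16, a phospholipase A now called PLAAT3, was 57.9, 56.7 and 58.6 CPM in controls and 47.4, 44.8 and 46.0 CPM with LYCAT shRNA. It fell 1.25-fold (edgeR adjusted p = 0.0111) and passed without any 1 library, but not with DESeq2 (0.0658) or without control libraries 1 and 2 (0.0845).

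**Figure D4:**
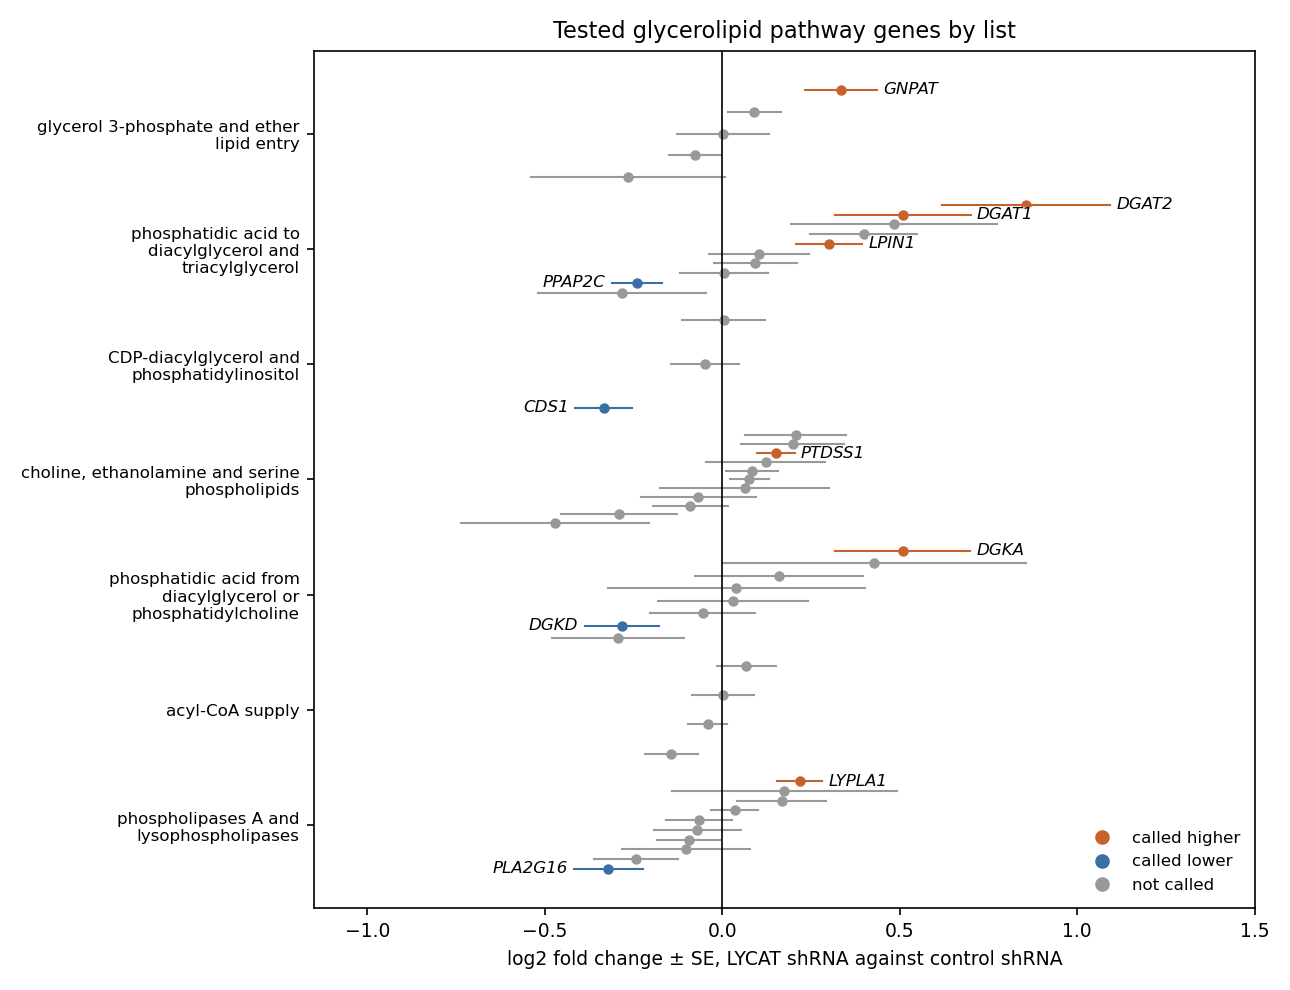
Log2 fold change (points) with its SE (lines) of the 51 tested pathway genes, 1 row per gene within 7 lists; colour gives the call at an edgeR adjusted p under 0.05 and called genes are named. The 7 genes that rose and the 4 that fell are spread over 6 of the 7 lists, and DGAT2 has the largest value, 0.86.

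The 5 genes whose log2 CPM followed LCLAT1 most closely over the 6 libraries, among 9408 compared, were AARS (alanyl-tRNA synthetase), DPYSL2, TRIB3 (a pseudokinase induced by the stress factor ATF4), FTL (ferritin light chain) and ALG12 (a mannosyltransferase of N-glycan assembly). Their Pearson correlations with LCLAT1 were 0.996 to 0.998. These values include the difference between the groups. After each group's mean was taken away, the correlations over the same 6 libraries were 0.925, 0.849, 0.988, 0.838 and 0.83, and they are descriptions of genes picked as the most alike. TRIB3 stood at 98.6, 102 and 103 CPM in controls and at 52.7, 55.1 and 55.8 CPM with LYCAT shRNA. AARS fell 1.61-fold and DPYSL2 1.65-fold, less than the 2.83-fold of LCLAT1, and ALG12 did not pass (log2 -0.52, edgeR adjusted p = 0.0538).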

How the data were processed

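Counts per gene symbol for 6 libraries were deposited as 1 table. The submitters' processing notes name featureCounts 1.5.1, Bowtie2, BWA 0.7.15 and bcl2fastq 2.17 and the builds hg19 and mm10. Which aligner, build, annotation and strand setting made the table was not given in the sources used here. In the table's header, LYCAT is spelled in a way read here as a misspelling. Counts were filtered with filterByExpr (11097 genes, 99.77% of counts), scaled by TMM and tested over all genes with edgeR 4.0.16 (R 4.3.3; quasi-likelihood F test, robust, group only), with Benjamini-Hochberg adjustment and a threshold of 0.05. SE is the log2 fold change divided by the square root of F; intervals are unadjusted 95% t intervals. DESeq2 1.42.0 and limma-voom (limma 3.58.1) were alternatives, and all were tested on simulated data. Replicate numbers did not pair libraries.

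AGPAT9 is an older symbol of GPAT3 and, in RefSeq (GRCh38.p14), a synonym of LPCAT1 too; LPCAT1 has its own row in the table, so AGPAT9 was read as GPAT3. Exon lengths and coding sequences came from GENCODE v29 (GRCh38), not a build the notes name, and were used for lengths, overlaps and motifs only. Protein identity was not analysed here. Named genes were all members, up to 2 called genes per direction and list (otherwise the 2 most abundant), and the 5 genes most like LCLAT1 with a mean of at least 5 CPM, unnamed loci, antisense and small RNAs left out. Members and lists were chosen with earlier results of these data known.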

Additional observations from a re-analysis of the deposited data

How the results depend on the processing

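The fall of LCLAT1 passed in all 14 alternatives, and its log2 fold change was -1.57 to -1.40 with 1 library left out. Of the 9 other members, 2 passed with DESeq2's size factors, 1 to 2 with 1 library left out (AGPAT3 joined AGPAT5 without control replicate 2), and 0 without control libraries 1 and 2. Of the pathway genes, 11 passed in the main fit, 2 with DESeq2, 6 to 9 with 1 library left out and 1 without control libraries 1 and 2; scaling by library totals gave 9. Among members that had not passed, GPAM (-0.025) and AGPAT4 (-0.085) had the opposite sign without control libraries 1 and 2. With 1 library left out AGPAT1 ran from -0.15 to 0.020, AGPAT4 from -0.17 to 0.21 and LPGAT1 from -0.012 to 0.063, and none of these 3 passed in those fits. By length of the longest transcript LCLAT1 ranked number 5 in controls, and its share was 9.66% in controls and 3.33% with LYCAT shRNA; in CPM without length the shares were 11.7% and 4.06%. By summed exon length with 1 library left out, it ranked 5 to 6 in controls and the shares were 8.80% to 9.12% and 2.99% to 3.21%. The cause of these differences was not tested.

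Deviations of same-numbered libraries from their group means correlated at 0.0051, -0.064 and -0.048, so the numbers do not pair libraries. With a replicate block LCLAT1 was at -1.50, 1 of 9 members and 11 pathway genes passed, and over all genes 2046 passed against 2117.

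Depth limits the scarce genes most: 3 counts were worth 0.608 to 0.968 CPM, and AGPAT4, AGPAT9 and DGAT2 stood under 15 CPM in every library.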
